A study of Mus musculus with 12 samples.

Results

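The 9 genes described here encode components and regulators of the complement system: C3, C4b, C1ra, C1rl, Cfb, Cfd, Cfp, Serping1 and Masp1. They were taken by gene symbol from the expression tables of 12 RNA sequencing libraries. The list was chosen with earlier results of these data known. All 9 were among the 18255 genes listed in at least 1 library, and 8 were among the 12993 genes with enough counts to be tested; Serping1 was not. The libraries came from 3T3-L1, a mouse line of fibroblast-like preadipocytes, as a line that overexpresses LIGHT (the cytokine encoded by Tnfsf14) and a control line (NC). Each line was sampled after and before culture towards beige adipocytes, which gave 4 groups of 3 libraries. LIGHT-Diff and NC-Diff had received a cocktail of dexamethasone, IBMX, rosiglitazone, triiodothyronine, indomethacin and insulin for 48 h, then maintenance medium with rosiglitazone, triiodothyronine and insulin. LIGHT-Undiff and NC-Undiff were the same lines in growth medium with serum. Each line stands for 1 overexpression or control culture; the sources used here name neither the promoter of the transgene, nor whether a line is 1 clone, nor the day of harvest. Nothing in the labels ties a replicate to its own culture, and the p-values therefore reflect only how these libraries scatter, which may be technical.

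Complement is a cascade of blood and tissue proteins that marks surfaces for removal and calls in immune cells. The classical route starts with C1, in which the protease C1r activates the protease C1s, which cleaves C4 and C2. The lectin route starts with mannose-binding lectin and its proteases, of which Masp1 is one. The alternative route needs factor B (Cfb), the protease factor D (Cfd, also called adipsin) and properdin (Cfp), which stabilises the convertase. All routes meet at C3, and the C1 inhibitor (Serping1) restrains the proteases of the first steps. Adipsin was first found as a product of fat cells, and fat tissue is known to secrete several of these proteins.

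Depth was 16334079 to 19686675 expected counts per library, so that 3 counts were worth 0.152 to 0.184 CPM, the counts scaled to library size. Tnfsf14 had 0, 148 and 122 counts in LIGHT-Diff libraries 1 to 3, against 113, 0 and 0 in NC-Diff libraries 1 to 3. It had 38, 53 and 58 counts in LIGHT-Undiff libraries and 0, 1 and 0 in NC-Undiff libraries. The library labelled LIGHT-Diff 1 and the library labelled NC-Diff 1 therefore go against their labels. Calls are counted with and without this pair, and a value comes from all 12 libraries unless another set is named. Leaving out the pair leaves 2 libraries in each differentiated group. All 8 adipocyte markers examined rose on differentiation in both lines, with summed levels of 16086 to 21892 CPM in LIGHT-Diff against 202 to 242 CPM in LIGHT-Undiff, and of 16284 to 21975 CPM in NC-Diff against 215 to 249 CPM in NC-Undiff. Markers of other cell types that make complement were also examined. The 3 hepatocyte markers listed summed to at most 1.05 CPM in any library. Alb had 3 counts at most, and Ttr and Fgb were listed in none. Leukocyte markers summed to 8.34 to 9.62 CPM in LIGHT-Diff, 8.42 to 8.77 CPM in NC-Diff, 14.5 to 16.3 CPM in LIGHT-Undiff and 19.7 to 20.5 CPM in NC-Undiff. Cd14 made up most of these sums, with 94 to 272 counts a library. Aif1 reached 43 counts, Cd68 39, Lyz2 39 and Csf1r 23. Ptprc had 11 counts at most and Itgam 1 count at most, and Tyrobp was listed in no library. The part of leukocyte markers in the results was not tested. The 4 endothelial markers summed to at most 1.1 CPM.

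The promoters of C3, Cfd and C1ra are shown because C3 and Cfd had the largest rises on differentiation and C1ra differed between the lines. RefSeq's promoter table (GRCm38.p6) held 5 of the 9 genes, C3, Cfd, C1ra, C1rl and Cfp, each with 250 bases before and 50 after the annotated start. The 250 bases before the start are printed 5′ to 3′ on the gene's own strand, and capitals mark matches to a motif of CCAAT/enhancer-binding proteins (C/EBP; TTNNGNAAT) or a nuclear receptor motif (AGGTCA), searched on both strands. The regions are chr17:57228137-57228386 on the minus strand for C3, chr10:79890603-79890852 on the plus strand for Cfd and chr6:124512371-124512620 on the plus strand for C1ra.
C3: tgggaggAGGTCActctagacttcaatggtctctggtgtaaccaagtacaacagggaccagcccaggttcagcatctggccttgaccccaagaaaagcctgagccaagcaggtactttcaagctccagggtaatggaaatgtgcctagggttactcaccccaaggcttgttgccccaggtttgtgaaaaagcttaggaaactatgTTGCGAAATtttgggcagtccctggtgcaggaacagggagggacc
Cfd: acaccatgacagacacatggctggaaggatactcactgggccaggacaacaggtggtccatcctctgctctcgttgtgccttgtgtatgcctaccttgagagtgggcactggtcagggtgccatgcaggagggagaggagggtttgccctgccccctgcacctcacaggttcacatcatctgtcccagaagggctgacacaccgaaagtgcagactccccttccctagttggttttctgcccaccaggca
C1ra: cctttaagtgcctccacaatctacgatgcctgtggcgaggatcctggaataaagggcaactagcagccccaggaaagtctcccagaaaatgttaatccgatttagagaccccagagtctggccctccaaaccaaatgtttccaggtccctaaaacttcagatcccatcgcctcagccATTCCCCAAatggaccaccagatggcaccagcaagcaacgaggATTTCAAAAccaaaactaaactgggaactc

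C3 had 1 C/EBP match, which starts 45 bases before the start, and 1 AGGTCA match, which starts 243 bases before it. C1ra had 2 C/EBP matches, both on the opposite strand, which start 73 and 30 bases before the start. None of these matches overlapped another. The printed Cfd stretch held no match to either motif. Over the 32851 promoters of the table, 11.5% held a C/EBP match and 16.3% an AGGTCA match in the same 300-base window. C1rl had an AGGTCA match 191 bases before its start and Cfp one 39 bases after its start. TATAAA, on either strand, was found only in C3 among the 5 genes, 15 bases after the annotated start, and in 13.6% of all promoters. TTCNNNGAA (STAT) was found only in C1ra among the 5, 33 bases after the start, and in 8.3% of all promoters. None of the 5 held GGGNNNTTCC (NF-κB, 5.56% of all promoters), GAAANNGAAA (interferon-stimulated response element, 3.44%) or CCAAT (37.4%). These are letter matches and carry no information on binding.

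Per length, as FPKM (fragments scaled to transcript length and library size), C3 was the most abundant of the 9 transcripts after differentiation, with a mean of 257 ± 70.5 FPKM in LIGHT-Diff and 229 ± 106 FPKM in NC-Diff (SD, n = 3 each). Cfd came next, with 81.9 ± 29 FPKM in LIGHT-Diff and 83.9 ± 22.7 FPKM in NC-Diff, and C1ra followed, with 23.8 ± 11.4 FPKM and 18.3 ± 11.4 FPKM in the same groups. The ranges of these genes did not overlap within either differentiated group. Before differentiation the order was another. C1ra (25.9 ± 1.28 FPKM) and Masp1 (24.3 ± 1.79 FPKM) led in LIGHT-Undiff with overlapping ranges, and Masp1 (18.7 ± 1.51 FPKM) stood above C1ra (15.8 ± 1.05 FPKM) in NC-Undiff with no overlap. C3 came next in both undifferentiated groups, at 11.9 ± 1.32 FPKM in LIGHT-Undiff and 11.7 ± 1.73 FPKM in NC-Undiff, and Cfd was last of the 9, at 0.05 ± 0.0436 FPKM and 0.21 ± 0.0436 FPKM. C1rl lay between 2.17 and 4.43 FPKM in every library. Cfp lay between 0.78 and 2.13 FPKM, and C4b, Cfb and Serping1 stayed at or below 1.05 FPKM in every library. Without the pair the order by mean was the same in all 4 groups.

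**Figure D1:**
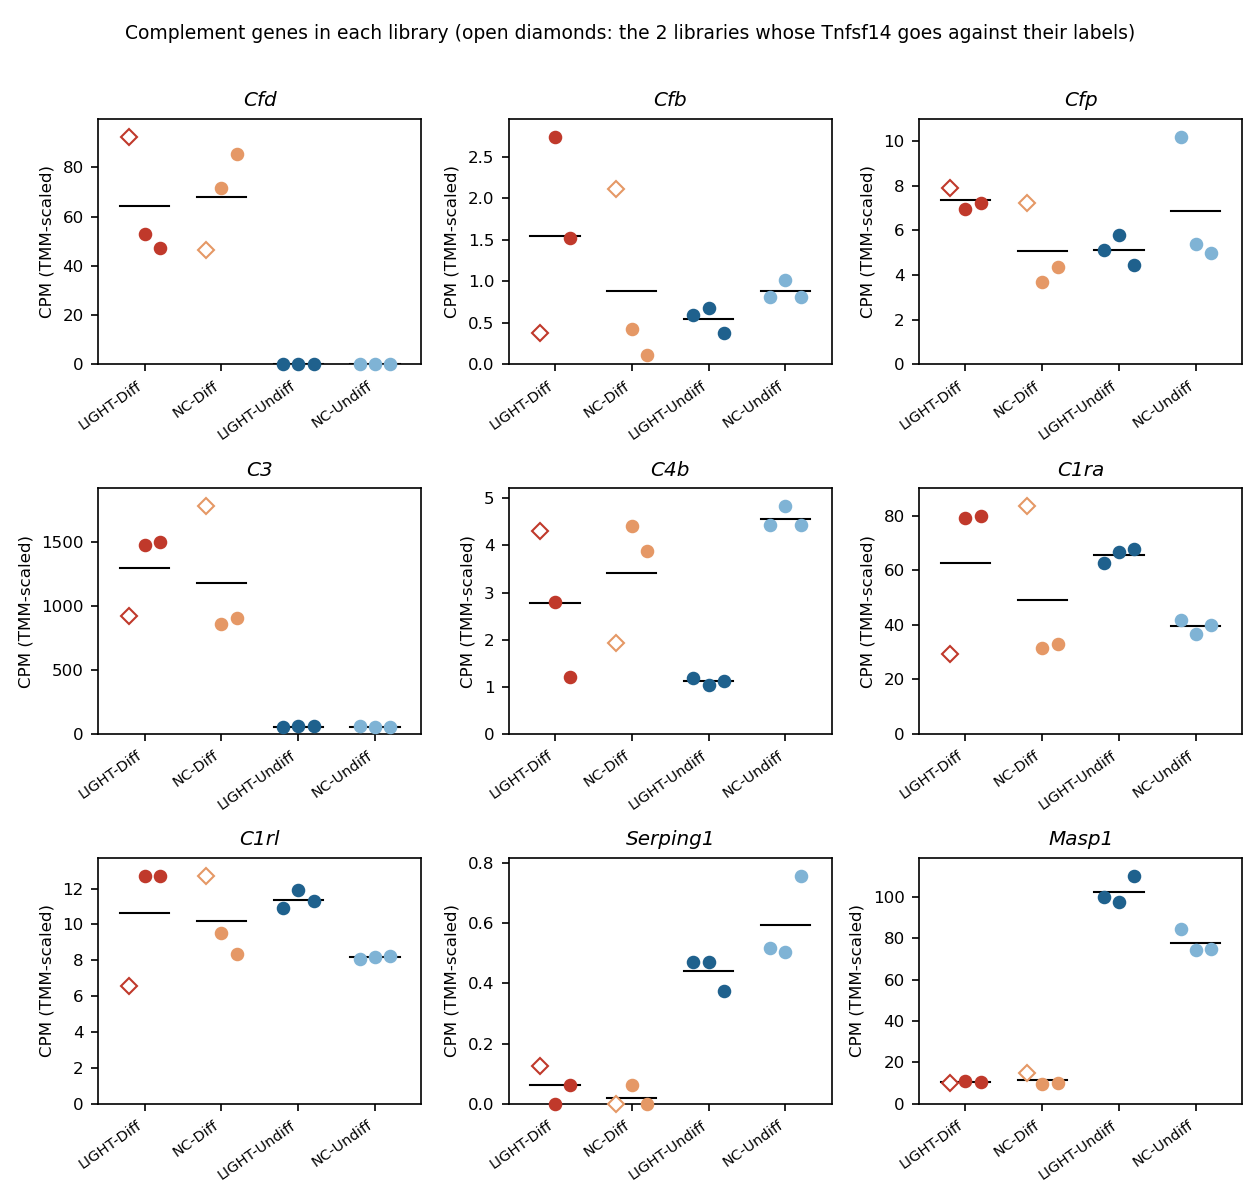
Level of each of the 9 genes in CPM (y axis, linear, from 0) in the 12 libraries by group (x axis), with points for libraries, bars for group means and open diamonds for LIGHT-Diff 1 and NC-Diff 1. Cfd and C3 are high only in the differentiated groups, Masp1 and Serping1 are lower there, and for C1ra the diamond of each differentiated group lies apart from its other 2 libraries.

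C3 and Cfd rose and Masp1 fell with differentiation in both lines. C4b rose in LIGHT cells, a call that was lost when LIGHT-Diff 1 alone or LIGHT-Undiff 2 alone was left out. In LIGHT cells 4 of the 8 tested genes passed (edgeR's quasi-likelihood test, adjusted p under 0.05 over all genes), 3 higher, where 29.5% of all genes tested were called higher, and 1 lower, where 29.1% were called lower. In control cells 3 passed, 2 higher, against 32.2% of all genes, and 1 lower, against 31.7%. Without the pair 6 passed in LIGHT cells, 5 higher (32.3% of all genes) and 1 lower (31.9%), and 6 passed in control cells, 2 higher (35.8%) and 4 lower (34.9%). Each of these counts of genes called higher includes Cfd. It passed the filter on low counts only through the differentiated libraries, so its call was fixed in advance. With library totals in place of the composition-adjusted scaling (TMM), the 50.6% of called genes that were higher in control cells without the pair became 40.2%, as the median of all genes moved to -0.15 on the log2 scale; with all 12 libraries that median moved to -0.11. In bulk RNA, fewer cells of a type and less RNA per cell cannot be told apart, here and in each comparison that follows.

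**Figure D2:**
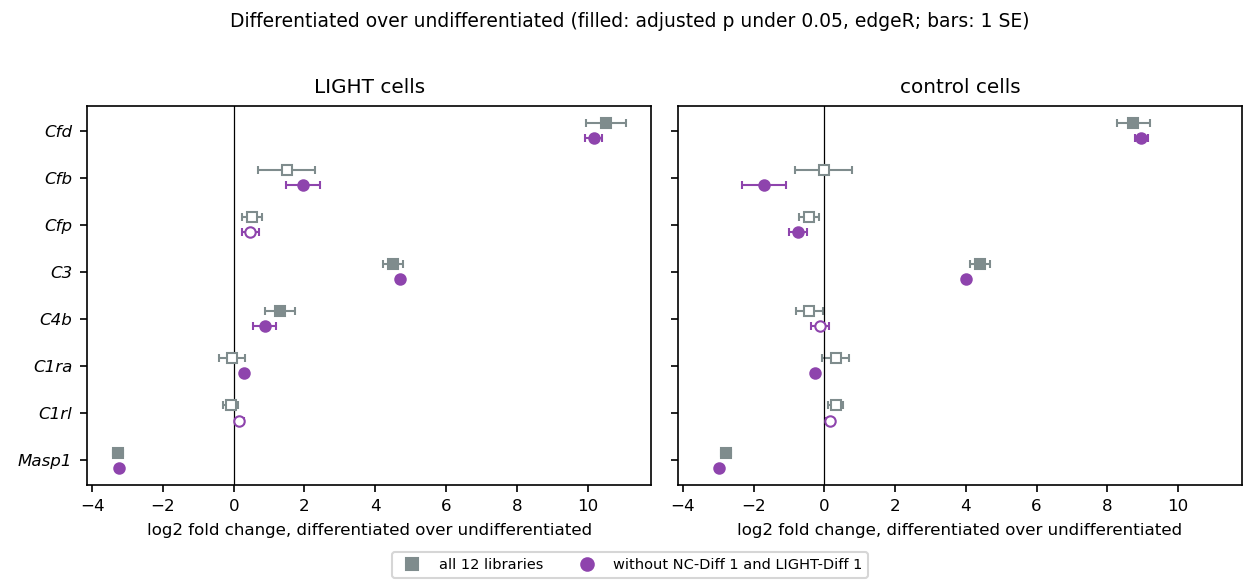
Log2 fold change of differentiated over undifferentiated libraries (x axis) for the 8 tested genes (y axis) in LIGHT cells (left) and control cells (right), with bars of 1 SE. Squares are the fit to all 12 libraries, circles the fit without LIGHT-Diff 1 and NC-Diff 1, and filled symbols have an adjusted p under 0.05; C3, Cfd and Masp1 are filled for both lines in both fits.

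Before differentiation LIGHT and control cells differed in 2 of the 8 genes, C4b lower, where 14.2% of all genes were called lower, and Masp1 higher, where 12.3% were called higher. Without the pair 4 passed, C1ra, C1rl and Masp1 higher (22.3% of all genes) and C4b lower (22.1%). After differentiation none of the 8 passed with all 12 libraries, where 0% of all genes were called higher and 0% lower by edgeR; 523 of the 12993 genes, and 0 of the 8, had an unadjusted p under 0.05, and DESeq2 called 1 gene, which was none of the 9. Without the pair 7 of the 8 passed after differentiation. C3, C1ra, C1rl, Cfb and Cfp were higher in LIGHT-Diff, where 14.6% of all genes were called higher, and C4b and Cfd were lower, where 16.4% were called lower. Of the genes called in that fit 47.1% were higher, and 66% with library totals; every one of the 7 calls stood under both. These calls rest on 2 libraries a group.

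**Figure D3:**
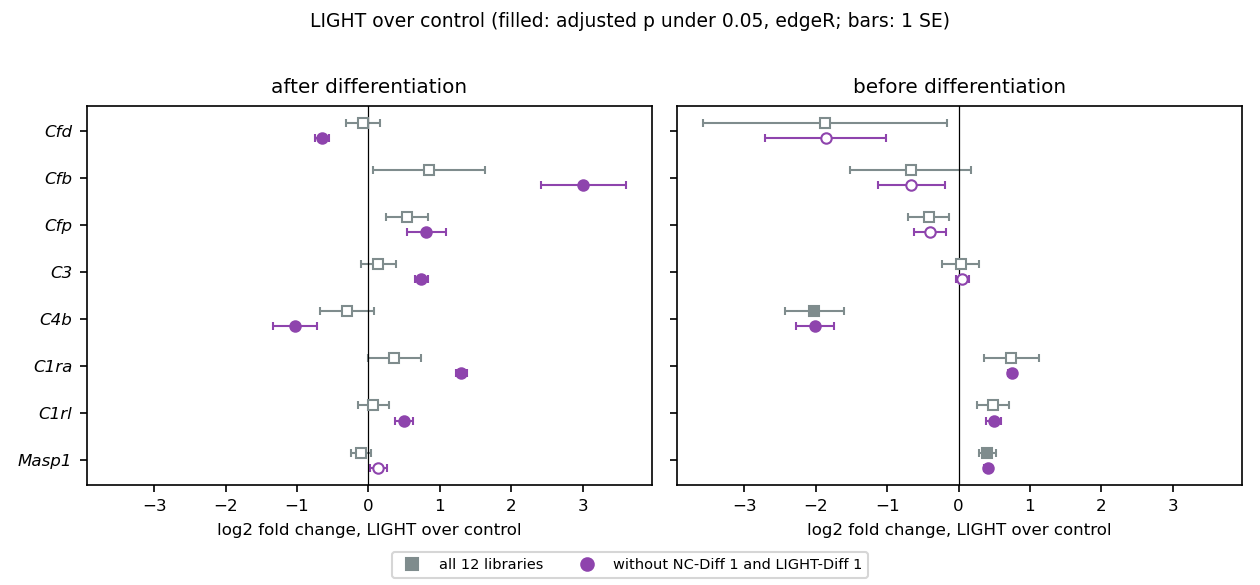
Log2 fold change of LIGHT over control libraries (x axis) for the 8 tested genes (y axis) after (left) and before (right) differentiation, with bars of 1 SE. Squares are the fit to all 12 libraries, circles the fit without LIGHT-Diff 1 and NC-Diff 1, and filled symbols have an adjusted p under 0.05; no square is filled after differentiation and 7 circles are.

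C3, the protein on which all 3 routes converge, had 926, 1478 and 1500 CPM in LIGHT-Diff libraries 1 to 3, against 51.0, 59.1 and 62.5 CPM in LIGHT-Undiff. It had 1781, 862 and 911 CPM in NC-Diff, against 65.5, 51.3 and 51.9 CPM in NC-Undiff. Every differentiated library was far above every undifferentiated one. The rise was 22.6-fold in LIGHT cells (log2 4.50 ± 0.29 (SE), adjusted p = 6.18e-08) and 21.1-fold in control cells (log2 4.40 ± 0.29, adjusted p = 5.34e-08). The lines did not differ detectably in C3 before differentiation (log2 0.03 ± 0.26, adjusted p = 0.944), and their ranges overlapped. After differentiation LIGHT-Diff 1 was the lowest of its group and NC-Diff 1 the highest of all 12 libraries, so that the groups overlapped (log2 0.14 ± 0.25, adjusted p = 0.937). Without those libraries C3 was 1.67-fold higher in LIGHT-Diff (1489 ± 15.6 CPM) than in NC-Diff (887 ± 34.8 CPM, SD, n = 2 each; log2 0.74 ± 0.09, adjusted p = 3.61e-06), with no overlap, and its difference before differentiation was log2 0.05 ± 0.09 (adjusted p = 0.691). The effect of LIGHT on C3 was then larger after than before differentiation by 0.69 ± 0.12 on the log2 scale (adjusted p = 0.000247).

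Cfd, the serine protease that cleaves factor B when it is bound to C3b, had 92.4, 53.0 and 47.3 CPM in LIGHT-Diff, against 0.059, 0.052 and 0 CPM in LIGHT-Undiff. In NC-Diff it had 46.5, 71.7 and 85.3 CPM, against 0.115, 0.169 and 0.175 CPM in NC-Undiff. The undifferentiated libraries of either line held at most 3 counts each, so Cfd passed the filter on low counts only through the differentiated libraries and had to differ. The ratio of summed counts was 1736 in LIGHT cells (exact 95% counting interval 480 to 14340) and 449 in control cells (228 to 1041). The ratios without the pair were 1377 (381 to 11383) and 516 (261 to 1195). Both rises passed (adjusted p = 9.44e-09 in LIGHT cells and 8.07e-09 in control cells). After differentiation the 2 groups overlapped (log2 -0.08 ± 0.24, adjusted p = 0.958). Without the pair Cfd was lower in LIGHT-Diff, at 50.2 ± 4.04 CPM, than in NC-Diff, at 78.5 ± 9.61 CPM (SD, n = 2 each; log2 -0.65 ± 0.10, adjusted p = 4.23e-05). In the same libraries 5 of the 8 adipocyte markers were lower and none higher in LIGHT-Diff, with summed levels of 16086 to 16486 CPM against 20831 to 21975 CPM in NC-Diff, and the median of the list was -0.34 on the log2 scale; its part in the Cfd result was not tested.

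Cfb, the zymogen that gives the protease of the alternative convertase, was low, with at most 52 counts in a library. Its counts were 6, 52 and 25 in LIGHT-Diff and 10, 13 and 7 in LIGHT-Undiff. In the control line they were 34, 7 and 2 in NC-Diff and 14, 18 and 14 in NC-Undiff. LIGHT-Diff 1 and NC-Diff 1 again stood on opposite sides of their groups. With all 12 libraries no contrast of Cfb passed, and the difference after differentiation was log2 0.85 ± 0.78 (adjusted p = 0.913). Without the pair Cfb was 8.06-fold higher in LIGHT-Diff, with 77 summed counts, than in NC-Diff, with 9 (log2 3.01 ± 0.60, adjusted p = 0.000774). It then rose with differentiation in LIGHT cells (log2 1.96 ± 0.47, adjusted p = 0.00113) and fell in control cells (log2 -1.71 ± 0.62, adjusted p = 0.0187). The difference between those changes was 3.67 ± 0.77 on the log2 scale (adjusted p = 0.00117).

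Cfp, properdin, had 7.91, 6.97 and 7.25 CPM in LIGHT-Diff, against 5.14, 5.81 and 4.45 CPM in LIGHT-Undiff. It had 7.21, 3.69 and 4.37 CPM in NC-Diff, against 10.2, 5.39 and 5.01 CPM in NC-Undiff, where NC-Undiff 1 was the highest of all 12 libraries. No contrast of Cfp passed with all libraries. Without the pair Cfp was higher in LIGHT-Diff (7.11 ± 0.199 CPM) than in NC-Diff (4.03 ± 0.48 CPM, SD, n = 2 each; log2 0.81 ± 0.27, adjusted p = 0.0313) and fell with differentiation in control cells (log2 -0.74 ± 0.25, adjusted p = 0.0146), while its change in LIGHT cells was log2 0.47 ± 0.24 (adjusted p = 0.0927). The Cfp entry joined the RefSeq transcript with 1 unnamed transcript, and its deposited length varied from 3171 to 7088 bases between libraries, so its counts are not those of the properdin transcript alone. The RefSeq transcript has 1636 bases, and NC-Undiff 1 and NC-Undiff 2 both stood at the longest value, 7088 bases. The results for Cfp are those of the joint entry, and how much of them belongs to properdin was not tested.

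C1ra encodes a C1r protease of the classical route. It had 29.4, 79.0 and 80.0 CPM in LIGHT-Diff, against 83.4, 31.6 and 32.8 CPM in NC-Diff. It had 62.8, 66.8 and 67.7 CPM in LIGHT-Undiff, against 41.8, 36.6 and 40.0 CPM in NC-Undiff. The undifferentiated groups did not overlap; in each differentiated group 1 library, the one in doubt, lay near the other line's remaining libraries. With all 12 libraries no contrast of C1ra passed, including the difference before differentiation (log2 0.74 ± 0.38, adjusted p = 0.17). A fit to the 6 undifferentiated libraries alone gave log2 0.75 ± 0.07 (adjusted p = 2.05e-07). Without the pair C1ra was 1.68-fold higher in LIGHT-Undiff than in NC-Undiff (log2 0.75 ± 0.06, adjusted p = 1.8e-08) and 2.46-fold higher in LIGHT-Diff than in NC-Diff (log2 1.30 ± 0.08, adjusted p = 4.86e-10). The effect was larger after than before differentiation by 0.55 ± 0.10 on the log2 scale (adjusted p = 0.000345). C1ra rose slightly with differentiation in LIGHT cells (log2 0.28 ± 0.07, adjusted p = 0.0012) and fell slightly in control cells (log2 -0.27 ± 0.07, adjusted p = 0.00337), both without the pair.

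C1rb is a near-identical copy of C1ra, and the deposited counts of both were partly fractional, so the split of their reads is uncertain. C1ra held 56.1% to 72% of the pair's summed level. Summed, the 2 copies had 52.1, 135 and 137 CPM in LIGHT-Diff, 141, 56.3 and 56.3 CPM in NC-Diff, 98.9, 107 and 104 CPM in LIGHT-Undiff and 63.1, 57.1 and 55.6 CPM in NC-Undiff. The sum showed the same separation of the lines as C1ra alone. The fall of C1ra in control cells did not hold for the sum (log2 -0.03, adjusted p = 0.668, without the pair), and no other call of C1ra changed.

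C1rl, a C1r-like protease, is the neighbour of C1ra on chromosome 6, where RefSeq places C1rl, C1ra, C1s1, C1rb and C1s2 in a run of 5 genes. C1rl had 6.54, 12.7 and 12.7 CPM in LIGHT-Diff, against 12.7, 9.51 and 8.37 CPM in NC-Diff. Before differentiation it had 10.9, 11.9 and 11.3 CPM in LIGHT-Undiff, against 8.08, 8.2 and 8.22 CPM in NC-Undiff, with no overlap (log2 0.48 ± 0.22, adjusted p = 0.134). Without the pair it was higher in LIGHT-Diff (log2 0.50 ± 0.13, adjusted p = 0.00771) and in LIGHT-Undiff (log2 0.49 ± 0.11, adjusted p = 0.00142), and the difference between stages was 0.01 ± 0.18 (adjusted p = 0.974). Differentiation itself did not change C1rl past the threshold in either line, with or without the pair.

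Without the pair the other genes of the run were higher in LIGHT cells at both stages as well. C1s1, which encodes the C1s protease that C1r activates, had 54.3, 129 and 134 CPM in LIGHT-Diff, against 143, 61.2 and 58.2 CPM in NC-Diff. It had 69.3, 73.9 and 68.7 CPM in LIGHT-Undiff, against 38.9, 31.6 and 33.0 CPM in NC-Undiff. Without the pair C1s1 was higher in LIGHT cells after (log2 1.13 ± 0.08, adjusted p = 5.29e-09) and before (log2 1.04 ± 0.07, adjusted p = 9.44e-10) differentiation, and with all 12 libraries it passed before (log2 1.03 ± 0.36, adjusted p = 0.0495) and not after (adjusted p = 0.919); of the 5 genes C1s2 also passed before (log2 1.5 ± 0.41, adjusted p = 0.017). C1s2 was higher in LIGHT cells by log2 1.29 ± 0.19 after (adjusted p = 4.47e-05) and 1.51 ± 0.18 before differentiation (adjusted p = 1.33e-06), and C1rb by log2 1.22 ± 0.11 (adjusted p = 7.82e-08) and 0.98 ± 0.09 (adjusted p = 7.6e-08), all without the pair. Without the pair the 8 fibroblast markers were split between the lines after differentiation, with 4 higher and 3 lower in LIGHT-Diff than in NC-Diff, a median of log2 0.13 and summed levels of 22443 to 23093 CPM against 19012 to 19469 CPM. Before differentiation 5 were higher and 2 lower in LIGHT-Undiff than in NC-Undiff, with a median of log2 0.66 and 26394 to 28089 CPM against 18497 to 21205 CPM. Their part in the results for this run was not tested.

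**Figure D4:**
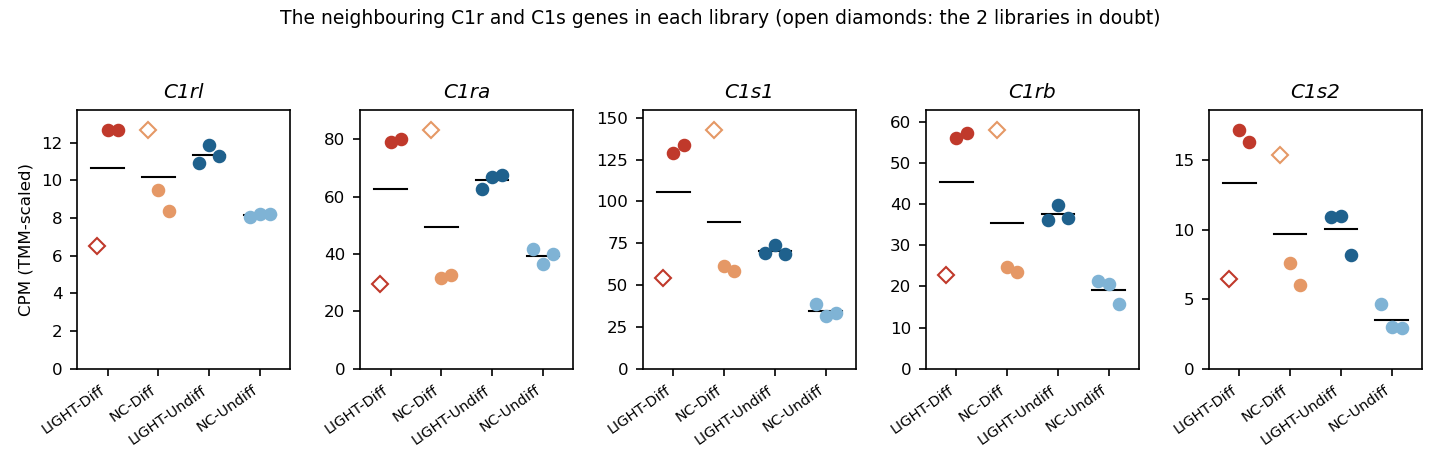
Level in CPM (y axis, linear, from 0) of the 5 neighbouring genes C1rl, C1ra, C1s1, C1rb and C1s2 in the 12 libraries by group (x axis), with bars for group means and open diamonds for LIGHT-Diff 1 and NC-Diff 1. In each panel LIGHT-Undiff lies above NC-Undiff, and the diamond of LIGHT-Diff lies low and that of NC-Diff high.

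C4b, a gene for C4, the protein that C1s and the lectin-route proteases cleave, was lower in LIGHT cells before differentiation. It had 1.18, 1.05 and 1.13 CPM in LIGHT-Undiff, against 4.44, 4.83 and 4.43 CPM in NC-Undiff. The groups did not overlap, and the level in LIGHT-Undiff was 4.07-fold lower (log2 -2.02 ± 0.41, adjusted p = 0.00364). It had 4.30, 2.80 and 1.22 CPM in LIGHT-Diff, against 1.93, 4.42 and 3.89 CPM in NC-Diff. LIGHT-Diff libraries thus spread over a wide range, and even LIGHT-Diff 2 and 3, which are not in doubt, differed from each other. C4b rose with differentiation in LIGHT cells (log2 1.30 ± 0.42, adjusted p = 0.0168), though not without LIGHT-Diff 1 (adjusted p = 0.0887) or without LIGHT-Undiff 2 (adjusted p = 0.0518). The rise was called with the whole pair left out, where it rests on LIGHT-Diff 2 and 3, at 2.80 and 1.22 CPM. Its change in control cells was log2 -0.42 ± 0.37 (adjusted p = 0.346). Without the pair C4b was lower in LIGHT-Diff than in NC-Diff (log2 -1.03 ± 0.31, adjusted p = 0.0145) and in LIGHT-Undiff than in NC-Undiff (log2 -2.01 ± 0.27, adjusted p = 6.18e-06), and the difference between the stages was 0.98 ± 0.41 (adjusted p = 0.0786). C4b shares reads with its copy C4a, which held the smaller part in all but 1 library; no contrast of C4a passed, and no call of C4b changed when the copies were summed.

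Masp1, a protease of the lectin route, went the other way from C3. It had 10.0, 10.8 and 10.7 CPM in LIGHT-Diff, against 99.8, 97.3 and 110 CPM in LIGHT-Undiff, a 9.72-fold fall (log2 -3.28 ± 0.14, adjusted p = 1.11e-09). It had 14.6, 9.51 and 9.82 CPM in NC-Diff, against 84.5, 74.1 and 74.6 CPM in NC-Undiff, a 6.89-fold fall (log2 -2.78 ± 0.14, adjusted p = 3.06e-09). No differentiated library came near an undifferentiated one. Before differentiation Masp1 was 1.32-fold higher in LIGHT-Undiff than in NC-Undiff, with no overlap (log2 0.40 ± 0.12, adjusted p = 0.0283), and this call was lost without any 1 of NC-Undiff 2, NC-Undiff 3, LIGHT-Undiff 1, LIGHT-Undiff 2 or LIGHT-Undiff 3 (adjusted p = 0.0548 to 0.102). Without the pair it was log2 0.41 ± 0.06 (adjusted p = 4.02e-05). After differentiation the lines did not differ past the threshold (log2 -0.10 ± 0.14, adjusted p = 0.924, and log2 0.14 ± 0.12, adjusted p = 0.392, without the pair). The Masp1 entry also held 1 unnamed transcript, though its length varied little, between 4471 and 4489 bases.

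Serping1, the C1 inhibitor, was close to the detection limit. It had 2, 0 and 1 counts in LIGHT-Diff, against 8, 9 and 7 counts in LIGHT-Undiff. It had 0, 1 and 0 counts in NC-Diff, against 9, 9 and 13 counts in NC-Undiff. Every undifferentiated library was above every differentiated one. The ratio of summed counts was 0.133 in LIGHT cells (exact 95% counting interval 0.0256 to 0.438) and 0.033 in control cells (0.000809 to 0.198). The ratios without the pair were 0.0644 (0.00157 to 0.395) and 0.0481 (0.00118 to 0.289). With no filter on low counts edgeR called it lower in LIGHT cells (log2 -2.75, adjusted p = 0.0199) and in control cells (log2 -4.47, adjusted p = 0.00157). The difference between LIGHT-Undiff and NC-Undiff, a ratio of 0.74 (0.416 to 1.3), was not detectable at this depth.

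With all 12 libraries the change of the LIGHT effect between stages passed for none of the 8 genes in edgeR, where 5.08% of all genes were called higher and 4.26% lower; 3 of the 8, C4b, Cfp and Masp1, had an unadjusted p under 0.05, and DESeq2 called C4b (adjusted p = 0.0344). Without the pair 4 passed, C3, C1ra, Cfb and Cfp. Each had a higher log2 fold change of LIGHT over control after than before differentiation. Of all genes, 14.9% were called in that direction and 16.1% in the other. Before differentiation the means of Cfb and Cfp were lower in LIGHT-Undiff than in NC-Undiff, and neither was called. They were 0.549 against 0.878 CPM for Cfb and 5.13 against 6.85 CPM for Cfp. The stage difference for Cfp was 1.21 ± 0.35 on the log2 scale (adjusted p = 0.0126). The share of called genes that were higher was 48.1% in that fit and 65.3% with library totals, and the 4 calls stood under both.

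Of the other complement genes sought, 32 were listed in some library, 17 in none, and 15 were tested. In LIGHT cells 4 of the 15 rose and 2 fell with differentiation, where 29.5% of all genes tested were called higher and 29.1% lower. In control cells 6 rose and 3 fell, against 32.2% and 31.7% of all genes. Without the pair the counts were 8 and 2 in LIGHT cells (32.3% and 31.9% of all genes). They were 8 and 3 in control cells (35.8% and 34.9%). Clu, clusterin, a secreted inhibitor of the terminal complex, rose in LIGHT cells (log2 2.23 ± 0.17, adjusted p = 2.55e-07) and in control cells (log2 2.15 ± 0.17, adjusted p = 2.76e-07). C3ar1, the receptor of the C3a fragment, fell in LIGHT cells (log2 -3.60 ± 0.80, adjusted p = 0.00187) and in control cells (log2 -4.35 ± 0.77, adjusted p = 0.000294), on at most 34 counts a library. Colec10, a collectin of the lectin route, fell in LIGHT cells (log2 -3.80 ± 0.74, adjusted p = 0.000759) and in control cells (log2 -3.13 ± 0.74, adjusted p = 0.00251), on at most 32 counts a library. C3ar1 and Colec10 had at most 4 counts in any differentiated library. Both passed the filter on low counts only through the undifferentiated libraries, so their falls, which are among those counted above, were fixed in advance. The reverse holds for C8g, whose counts ranged from 0 to 9 before differentiation and from 24 to 39 after it. It passed that filter only through the differentiated libraries, so any rise of C8g among those counted above was fixed in advance too.

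Before differentiation 2 of the 15 were higher and 2 lower in LIGHT cells, against 12.3% and 14.2% of all genes. After it none passed, where 0% of all genes were called. Without the pair 3 were higher and 2 lower before differentiation (22.3% and 22.1% of all genes). In the same fit 4 were higher and 1 lower after it (14.6% and 16.4%). C1qbp, a mainly mitochondrial protein first isolated by its binding to C1q, was lower in LIGHT-Undiff (log2 -0.58 ± 0.08, adjusted p = 0.000334). It was the 1 gene of the 15 to pass the test of the stage difference (0.48 ± 0.11 on the log2 scale, adjusted p = 0.0205), where 5.08% of all genes were called higher. Cr1l, a membrane regulator of C3 cleavage in rodents, was lower in LIGHT-Undiff (log2 -0.44 ± 0.09, adjusted p = 0.00405) and fell with differentiation in control cells (log2 -0.54 ± 0.09, adjusted p = 0.00019). Cd59a, which blocks the terminal complex, rose in LIGHT cells (log2 0.70 ± 0.18, adjusted p = 0.00529) and in control cells (log2 0.58 ± 0.18, adjusted p = 0.0148).

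Several genes that would complete the cascade were barely detected. C2 and Hc (which encodes C5) had at most 3 counts in any library. Cd55, a membrane inhibitor of the convertases, had 1 to 14 counts and passed in no contrast. The genes listed in no library included Cfi, the protease that inactivates C3b, and C1qa, C1qb and C1qc, the chains of C1q.

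Genes whose pattern over the 12 libraries was most like that of a complement gene were named by the smallest root mean square difference of centred log2 CPM, with Pearson's r as a description, since all genes share the same 12 libraries and 4 groups. Cfd was nearest to G0s2 (0.25 log2 units, r = 0.999), Slc2a4 (0.28, r = 0.998) and Fabp4 (0.31, r = 0.999), and these were also its nearest 3 without the pair. C3 was nearest to Car3 (0.28, r = 0.997), Trf (0.30, r = 0.992) and Myh11 (0.30, r = 0.991) with all 12 libraries, and to Mc5r (0.27), Dgat2 (0.28) and Ear3 (0.29) without the pair. C1ra was nearest to Tspan7 (0.10, r = 0.988), Ptn (0.15, r = 0.977) and Pdgfra (0.16, r = 0.963), and Tspan7 and Pdgfra stayed among its nearest 3 without the pair. Masp1 was nearest to Fam131b, Fsd1 and Filip1l (0.21 to 0.22) with all 12 libraries, and to Ifit1, Epb41l4a and Usp18 (0.21 to 0.22) without the pair. C4b was nearest to Actr3b (0.27, r = 0.949), which was also its nearest gene without the pair (0.26). No close match was found for Cfb, whose nearest gene, Icam5, was 0.57 log2 units away, against a standard deviation of 0.98 for Cfb itself; without the pair it was Angpt2, at 0.58 against 0.95.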

How the data were processed

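Total RNA was sequenced from 12 libraries of 3T3-L1 cells. The authors deposited 1 table per library with expected counts, FPKM and a length per gene, per the file headers. An expected count is an estimate that shares reads between similar transcripts; 83.6% to 84.5% of the listed values were whole. FPKM, as deposited, divide by length and library total. The submitters' processing notes name mm8 as the build. The aligner, the counter and the use of strand were not given in the sources used here. Overlapping or antisense genes therefore cannot be told apart. A gene missing from a table was read as 0.

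Expected counts were rounded and tested with edgeR 4.0.16 (R 4.3.3; TMM scaling, filterByExpr with a minimum count of 10, quasi-likelihood test) in 1 fit to all 12 libraries with a coefficient per group. The threshold was 0.05 on the Benjamini-Hochberg adjusted p, taken over all genes tested. The 5 contrasts were differentiation in each line, LIGHT over control at each stage, and their interaction. Standard errors were derived from edgeR's F as |log2 fold change|/√F. Counting intervals are exact at 95% and, like floors of 3 counts, cover counting error only, since PCR copies are not independent molecules. CPM are TMM-scaled and FPKM are the authors' values.

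The complement genes, the gene lists and the rules were chosen with earlier results of these data known. All 9 genes are named, with the 3 smallest p per contrast among the other complement genes called, C1rb, C4a and the genes that complete a step. Cd59a and Cd55 fall under the last class, and C8g is named for its low counts before differentiation. One gene that the rule picks is not reported here. Likeness was computed on log2 CPM (prior count 2). The results were recomputed with library totals, RLE scaling, DESeq2 1.42.0, a minimum count of 50, no low-count filter, a replicate block, 2-group fits, and leaving out each library or both libraries in doubt. The fit was tested on simulated data with 200 changed genes.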

Additional observations from a re-analysis of the deposited data

Results flagged for a closer look

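After leaving out LIGHT-Diff 1 and NC-Diff 1, the effect of LIGHT after differentiation exceeded that before it for 4 genes by edgeR's interaction test, by 0.69 on the log2 scale for C3 (adjusted p = 0.000247), 0.55 for C1ra (adjusted p = 0.000345), 3.67 for Cfb (adjusted p = 0.00117) and 1.21 for Cfp (adjusted p = 0.0126). For Cfb and Cfp the mean before differentiation was lower in LIGHT-Undiff than in NC-Undiff, so the effect changed sign between the stages. None of these 4 passed with all 12 libraries.

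For 3 genes the libraries moved in opposite directions against the mean of the group they were set against, with all 12 libraries, and the interaction test of the difference did not pass. Every LIGHT-Diff library of C4b lay above LIGHT-Undiff and every NC-Diff library below NC-Undiff, a difference of 1.72 (adjusted p = 0.0752). The libraries farthest out for C4b were those in doubt, LIGHT-Diff 1 at 4.30 CPM and NC-Diff 1 at 1.93 CPM. Other margins were very small. LIGHT-Diff 3 had 1.22 CPM against 1.18 CPM in LIGHT-Undiff 1, and NC-Diff 2 had 4.42 CPM against 4.43 CPM in NC-Undiff 3. Every LIGHT-Diff library of Cfp lay above the NC-Diff mean and every LIGHT-Undiff library below the NC-Undiff mean, a difference of 0.95 (adjusted p = 0.169). For Masp1 the directions were the other way round, a difference of -0.50 (adjusted p = 0.118). The NC-Diff mean of Masp1 was raised by NC-Diff 1, a library in doubt, at 14.6 CPM. NC-Diff 2 and 3, at 9.51 and 9.82 CPM, lay below every LIGHT-Diff library. The NC-Undiff mean of Cfp was raised by NC-Undiff 1 (10.2 CPM, against 5.39 and 5.01 CPM). LIGHT-Undiff 2, at 5.81 CPM, lay above NC-Undiff 2 and 3.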

How the results depend on the processing

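No direction of a called value reversed under any alternative. Leaving out both libraries in doubt gave 6 called genes in place of 3 for differentiation in control cells, 6 in place of 4 in LIGHT cells, 4 in place of 2 for LIGHT over control before differentiation, 7 in place of 0 after it and 4 in place of 0 for the interaction. The called share of all genes tested rose as well. In the same order it went from 63.9% to 70.7%, 58.6% to 64.1%, 26.5% to 44.4%, 0% to 31% and 9.34% to 31%. With that pair left out, library totals or RLE scaling changed 0 of 40 calls, and summing the near-identical copies left 5 called genes for differentiation in control cells and 4, 7 and 4 for the last 3 contrasts; the copies and these 2 scalings were chosen after seeing the data. Leaving out single libraries gave 3 to 4 called genes for differentiation in control cells, 3 to 5 in LIGHT cells, 1 to 3 for LIGHT over control before differentiation, 0 after it in every case and 0 to 2 for the interaction; 465 of 480 gene values kept their side of the threshold. A fit to the 2 groups compared called 4 genes before differentiation, and DESeq2 called 1 in the interaction. The cause of these shifts was not tested.

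Replicate numbers gave little sign of pairing. Correlations of same-numbered deviations ran from -0.007 to 0.097 for differentiation in each line and for LIGHT over control before it. For LIGHT over control after differentiation they ran from -0.618 to -0.292. Both libraries in doubt carry number 1 there and stand against each other, so these values cannot test pairing. A replicate block gave 3, 4, 2, 0 and 0 called genes in the 5 contrasts, as without it.

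Cfb, Serping1 and C2 are limited by depth, the comparisons after differentiation by 2 libraries a group once the pair is left out, C1ra, C1rb, C4b and C4a by shared reads, and Cfp by its unnamed transcript.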
